A study of Mus musculus with 4 samples.

Results

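The genes described here carry glucose into the T cell, break it down to pyruvate and lactate, move lactate out, and set how much pyruvate the mitochondria receive. They number 37 and were given as a list by symbol: glucose and lactate transporters, the enzymes of glycolysis, the kinases of pyruvate dehydrogenase, HIF1 with 3 of its classic targets, and 4 enzymes of the pentose phosphate pathway. All 37 were found on the array through the RefSeq accession of their probes, out of 45526 genes or unnamed transcripts, and 66 probes measured them. A gene with several probes is represented by the brightest. All 37 also passed the filter on dim probes, which kept a gene if wild type or knockout had it well above background on both of its arrays, and 36 of them were above background on every array. The exception was Eno2, which was above background on both knockout arrays and 1 of 2 wild-type arrays.

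The samples were CD4+ T cells from spleens of male C57BL/6 mice, either wild type or Irf4-/-, with 2 arrays per genotype. Naive cells (CD62L+CD44-) had been stimulated in both groups with the CD3e antibody 2C11 at 1 µg per ml beside syngeneic antigen-presenting cells blocked with mitomycin C, and CD4+ cells alive on day 2 were sorted for RNA. The labels state that independent experiments were performed for both genotypes but give no number of animals, no pooling, and no genotype for the antigen-presenting cells, nothing ties an array to an experiment, and a protocol field speaks of cultures shorter than the day 2 of the titles. The p-values therefore measure the spread between these arrays only.

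A resting T cell burns fuel in its mitochondria. After stimulation through its antigen receptor it takes up far more glucose and turns much of it into lactate even where oxygen is present, which is called aerobic glycolysis. Myc and HIF1 are the transcription factors best known for driving the genes of this programme. HIF1 is a pair of HIF1-alpha and Arnt that binds the letters ACGTG or GCGTG; prolyl hydroxylases such as Egln3 mark HIF1-alpha for destruction and are HIF1 targets themselves. Irf4 is induced by the antigen receptor and has been linked to this metabolic change in T cells.

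Levels are log2 signals relative to the 75th percentile of the array, and differences are log2, knockout minus wild type, with limma's standard error (SE). The arrays had 25677 to 28725 probes well above background, and no brightest probe of the 37 genes was saturated on any. Replicate 1 of both genotypes lay in row 1 of the single slide and replicate 2 in row 2, so differences are also given within each row. Irf4 itself was 4.89 ± 0.20 (SD, n = 2) in wild-type and 4.14 ± 0.14 in knockout cells, a difference of -0.75 ± 0.20 (SE; limma adjusted p = 0.231), and since the place of its probe relative to the deletion is unknown here, this is no check of the labels. T-cell markers were present in both groups. All 9 T-cell markers were above background on every array, with a summed linear level between 1061 and 1179 in wild type and between 1107 and 1172 in the knockout.

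Without Irf4, signal was lower for the glucose transporter gene Slc2a3, the hexokinase gene Hk2, all 3 phosphofructokinase genes, and Hif1a with its targets Egln3, Vegfa and Bnip3. It was higher for the transporter gene Slc2a6 and the enolase genes Eno2 and Eno3, of which Eno2 passed the filter on dim probes only through the knockout. Counting differences of at least 0.5 in size without overlap between genotypes, 12 of the 37 genes were lower (6.12% of all genes tested) and 3 higher (7.78%). The 37 genes were chosen with earlier results of these data known, so counts of them are no independent test. Gapdh, Aldoa, Eno1, Pkm and Ldha differed by 0.20 or less in size, as did 3 of the 4 pentose phosphate genes, while Pgk1, Gpi1, Pgam1 and Tpi1 differed by -0.26, -0.26, -0.30 and -0.54. No single gene of the 37 passed the test over all 20505 genes (limma, adjusted p under 0.05), where 0.736% of genes passed. At an unadjusted p under 0.05, 11 of the 37 were lower and 3 higher, against 5.01% and 6.35% of all genes tested. The smallest adjusted p among them was 0.0761, for Slc2a6. With other settings of the same tool, trend and robust moderation passed 7 of the 37, normexp background correction 9, and median scaling 6. With replicate number as a block, none of the 37 passed.

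As a group, 29 of the 37 differences were negative and 8 positive (53.3% of all genes tested were negative). Because earlier results of these data were known when the list was chosen, the shares set beside it only describe it. The median was -0.26, against -0.02 for all genes tested. The knockout arrays were both below the wild-type pair for 21 genes, or 56.8% of the 37 (21.3% of all genes tested), and above both for 4 (17.9% of all genes tested). In slide row 1 the median was -0.17 and in row 2 it was -0.38, with medians over all genes of 0.01 and -0.04. Negative differences in both rows were seen for 22 of the 37 and positive ones in both rows for 5. Over all 20505 genes tested these counts were 6873 and 6007. The lower signal was wider in row 2. Knockout replicate 2 lay above knockout replicate 1 for 10 of the 37 (8468 of all 20505 genes tested). The median of replicate 2 minus replicate 1 was -0.22 (-0.07 over all genes). Markers of other cells also differed between the groups. Of 10 B-cell markers, all tested, 9 had positive differences (median 1.09) and the receptor gene Fcmr alone passed (adjusted p = 0.0395). The summed B-cell marker level was 3.47 to 5.77 in wild type and 12.2 to 17.8 in the knockout. The summed level of 10 myeloid and dendritic markers was 11.9 and 12.7 in wild type and no higher than 11.7 in the knockout, with Lyz2, Adgre1, Fcgr3 and Itgax above background on no array. Of the 4 that were tested 3 had positive differences (Tyrobp 1.87, Cd68 0.60 and Csf1r 0.01) and Itgam differed by -0.30. Among 4 class II presentation genes, none of which passed, H2-Aa, H2-Eb1 and Cd74 had positive differences (1.43, 1.31 and 0.56). H2-Ab1 differed by -1.44, with both knockout arrays below both wild-type arrays. The summed class II level was 32.3 and 35.6 in wild type and 30.0 and 16.4 in the knockout. All 3 tested erythroid markers had positive differences (median 0.97), as did the natural killer marker Klrd1 (1.87), while Cd8b1 differed by -0.98, and none of these passed. The other CD8 and natural killer markers, Cd8a, Klrb1c and Ncr1, were too dim to be tested. Ncr1 was above background on no array. Of 10 proliferation markers 9 had negative differences (median -0.17), against 53.3% of all genes tested. For 8 of them the genotypes overlapped (12459 of all 20505 genes tested), and none had an unadjusted p under 0.05 (limma). Their summed levels overlapped too, at 618 and 496 on wild-type replicates 1 and 2 and 514 and 462 on knockout replicates 1 and 2. What part these cells or the pace of division had in the glucose genes was not tested. In a bulk sample, fewer cells that use a gene and less RNA per cell cannot be told apart.

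**Figure D1:**
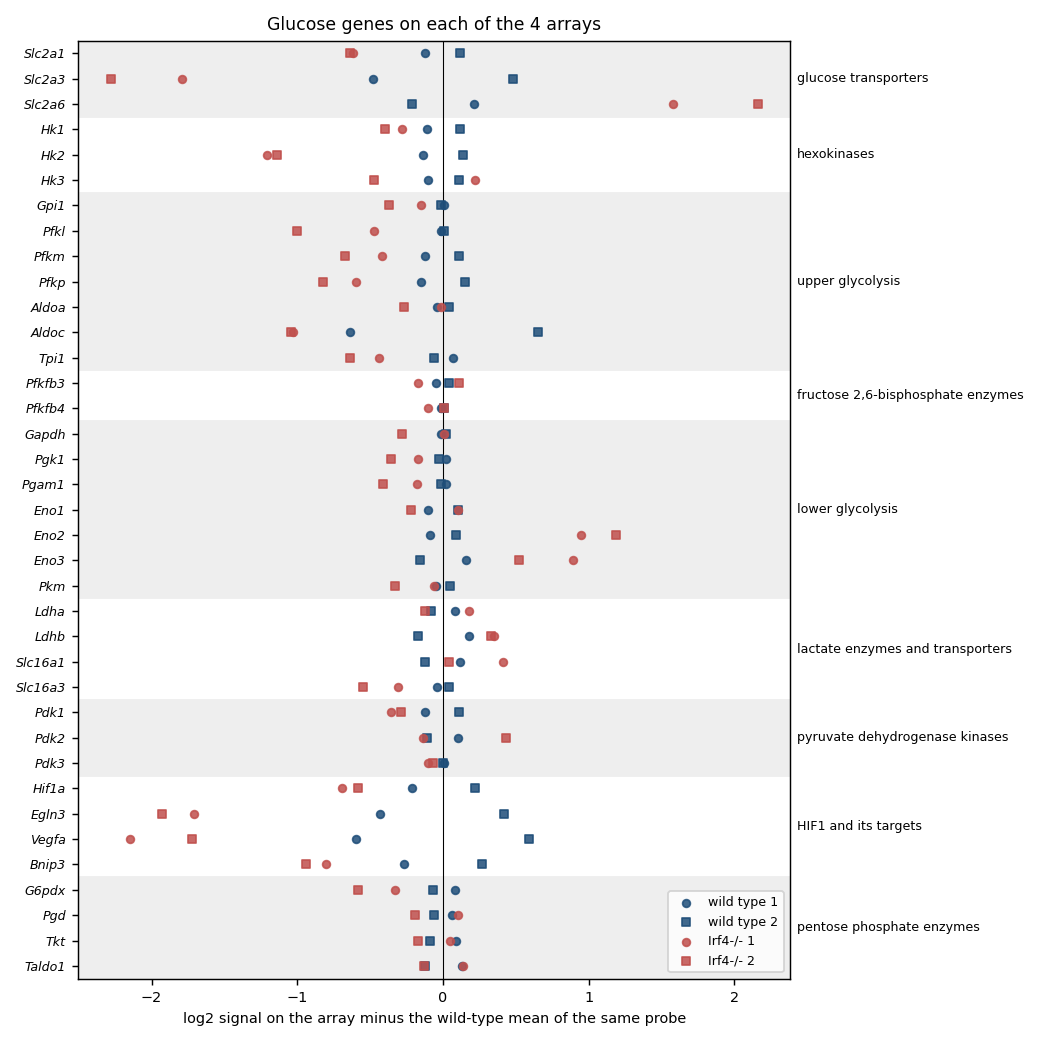
Log2 signal of each of the 37 genes on each of the 4 arrays, drawn as the distance from the wild-type mean of the same probe; blue marks are wild type, red marks Irf4-/-, circles replicate 1 and squares replicate 2, and shaded bands group the genes by role. Slc2a3, Egln3 and Vegfa have both red marks far to the left, Slc2a6 has both far to the right, and the red and blue marks of Gapdh, Ldha, Tkt and Taldo1 overlap.

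**Figure D2:**
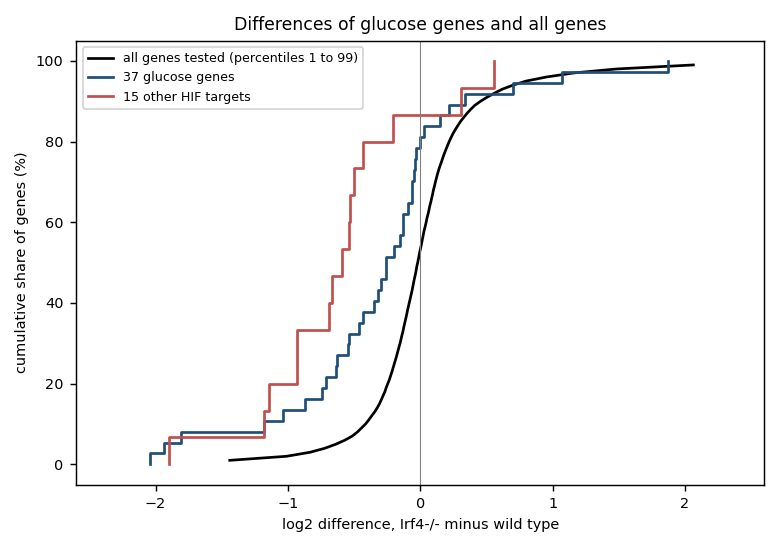
Cumulative share of genes (vertical axis, percent) by log2 difference, knockout minus wild type (horizontal axis), for the 20505 genes tested (black), the 37 glucose genes (blue) and 15 other HIF targets (red). The blue curve lies left of the black one below 0, with medians of -0.26 and -0.02, and the red curve has a median of -0.59.

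The start regions of these genes show where the HIF letters lie. RefSeq (GRCm38.p6) gave promoter sequences for 36 of the 37 genes, 52 sequences in all since some genes have several starts, and the 250 bases before each start were searched on both strands. The letters ACGTG were found in 21 of the 52 (40.4%), against 16.6% of 32851 such sequences of all genes, and GCGTG in 28 (53.8%, against 28.2%). Some starts of Aldoa, Eno1 and Pfkm lie so close that their sequences overlap, so the same letters were counted more than once. The E-box CACGTG, the site of Myc, holds ACGTG on both strands and was found in 7 (13.5%, against 6.02%). All 3 motifs hold a CG, and the sequences were not matched for base composition. Of letters that Irf4 is known to use with its partners, the IRF tandem repeat was found in 1 (2.98% of all), the ETS and IRF composite in 1 (2.30%), and the AP-1 site TGANTCA in 1 (6.75%). They belonged to starts of Vegfa, Pdk1 and Aldoa. By gene, ACGTG was found for 7 of the 11 lower genes that had a sequence, for none of the 3 higher ones and for 11 of the other 22. Pfkl, Pfkp, Aldoc and Tpi1 were lower genes without it. A gene counted here if any of its starts held ACGTG, so genes with several starts had more chances. The share by gene was not computed over all genes, so these counts have no background to be read against. The sequences of 5 genes are shown because they set genes with lower signal (Hk2, Egln3, Bnip3) beside one that hardly differed (Ldha) and one with higher signal (Slc2a6). Each runs 5′ to 3′ towards the start, and capitals mark ACGTG or GCGTG on either strand.
Hk2: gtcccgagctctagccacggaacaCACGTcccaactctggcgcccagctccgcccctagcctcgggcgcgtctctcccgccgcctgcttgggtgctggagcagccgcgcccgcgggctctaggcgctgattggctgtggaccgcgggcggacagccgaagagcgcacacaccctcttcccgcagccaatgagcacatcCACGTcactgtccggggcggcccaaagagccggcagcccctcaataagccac
Egln3: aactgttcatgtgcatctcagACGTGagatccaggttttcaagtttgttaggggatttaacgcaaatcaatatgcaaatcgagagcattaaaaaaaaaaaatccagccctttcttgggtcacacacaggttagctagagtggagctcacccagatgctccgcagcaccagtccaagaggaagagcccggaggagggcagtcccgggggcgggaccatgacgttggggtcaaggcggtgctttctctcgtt
Bnip3: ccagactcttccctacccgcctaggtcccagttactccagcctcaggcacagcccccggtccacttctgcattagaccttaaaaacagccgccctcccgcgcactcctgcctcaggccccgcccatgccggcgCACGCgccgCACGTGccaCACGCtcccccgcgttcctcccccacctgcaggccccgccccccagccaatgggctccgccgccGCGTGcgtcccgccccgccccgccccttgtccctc
Ldha: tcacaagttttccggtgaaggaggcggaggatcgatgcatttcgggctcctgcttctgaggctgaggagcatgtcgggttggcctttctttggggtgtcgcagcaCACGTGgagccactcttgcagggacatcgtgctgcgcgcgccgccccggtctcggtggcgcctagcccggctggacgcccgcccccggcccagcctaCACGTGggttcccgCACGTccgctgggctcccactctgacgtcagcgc
Slc2a6: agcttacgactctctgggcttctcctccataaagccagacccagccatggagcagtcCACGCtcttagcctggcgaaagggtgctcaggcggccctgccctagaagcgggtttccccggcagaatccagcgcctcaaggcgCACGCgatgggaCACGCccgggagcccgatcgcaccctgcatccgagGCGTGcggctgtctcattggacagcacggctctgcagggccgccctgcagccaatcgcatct
They lie at chr6:82774455-82774704 (minus strand), chr12:54203875-54204124 (minus strand), chr7:138909507-138909756 (minus strand), chr7:46845554-46845803 (plus strand) and chr2:27027999-27028248 (minus strand). The Hk2 sequence holds ACGTG at positions -226 to -222 and -52 to -48 from the start, Egln3 at -229 to -225, and Bnip3 within an E-box at -108 to -103 beside GCGTG at 3 places. The Ldha sequence shown holds 2 E-boxes and 1 further ACGTG. A second Ldha start, not shown, holds GCGTG at 1 place and no ACGTG. Slc2a6 holds GCGTG at 4 places and no ACGTG. A match is a description of letters and not a bound site.

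Glucose enters T cells through facilitative transporters, of which Slc2a1 (GLUT1) and Slc2a3 (GLUT3) sit on the surface. Slc2a3 had the most negative difference of the 37 genes. Its level was 4.33 and 5.29 on the wild-type arrays and 3.02 and 2.53 on the knockout arrays. The genotypes did not overlap, and wild-type replicate 2 was the highest. The difference was -2.04 ± 0.38 (SE), or 4.11-fold lower (limma adjusted p = 0.117), which placed it 79th from the most negative of 20505. It was -1.32 in row 1 and -2.76 in row 2. A second, dimmer probe was at -2.86 and -1.39 in wild type and not well above background on either knockout array.

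Slc2a1 stood at 4.11 and 4.35 in wild type and 3.61 and 3.59 in the knockout. The groups did not overlap and the knockout arrays were nearly equal. This difference was -0.63 ± 0.18, or 1.55-fold (adjusted p = 0.270), with a 95% interval of -1.09 to -0.17 before adjustment.

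Slc2a6 (GLUT6), a transporter found mainly on internal membranes, went the other way. It stood at 1.40 and 0.98 in wild type and at 2.77 and 3.35 in the knockout, with knockout replicate 2 the highest. The difference was 1.87 ± 0.28, or 3.65-fold higher (adjusted p = 0.0761), and a second probe differed by 1.63. In rows 1 and 2 it was 1.37 and 2.37. It passed when knockout replicate 1 was left out (2.16, limma adjusted p = 0.0242), where the lone knockout array is assumed to vary like wild type, and not when any of the other 3 arrays was (adjusted p of 0.117 to 0.368). On the same arrays, the log2 signal of Slc2a6 minus that of Slc2a1 moved from a mean of -3.04 in wild type to -0.54 in the knockout, and that of Slc2a3 minus Slc2a1 from 0.58 to -0.83. Neither quantity overlapped between genotypes, but an exact permutation test over 4 arrays cannot go below p = 0.333, the value both reached (adjusted p = 0.433 over 13 such pairs of related genes).

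Hexokinases trap glucose by phosphorylation. Hk2 is the inducible form and Hk1 the form of most tissues. The level of Hk2 was 2.19 and 2.47 in wild type and 1.12 and 1.19 in the knockout. The gap between genotypes was wider than that between the arrays of either. Its difference of -1.18 ± 0.19 (2.26-fold lower, adjusted p = 0.0839) was similar in rows 1 and 2, at -1.07 and -1.28. Hk2 is 1 of the 4 genes whose sequence above holds ACGTG.

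Hk1 was at 5.81 and 6.04 in wild type and 5.64 and 5.52 in the knockout, a difference of -0.35 (adjusted p = 0.620). Hk3, a hexokinase of myeloid cells, was at -1.01 and -0.80 against -0.69 and -1.38, and its groups overlapped. Hk2 minus Hk1 on the same array moved from -3.59 to -4.42 in the knockout, without overlap (exact permutation p = 0.333, adjusted p = 0.433).

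The next enzymes split glucose-6-phosphate into 3-carbon sugars. Phosphofructokinase, the committed step of glycolysis, is built from liver, muscle and platelet type subunits encoded by Pfkl, Pfkm and Pfkp. All 3 genes were lower in the knockout by similar amounts. Pfkl was at 3.45 and 3.47 in wild type and at 2.99 and 2.46 in the knockout (-0.74 ± 0.23, adjusted p = 0.321). Pfkp was at 5.38 and 5.68 against 4.93 and 4.71 (-0.71 ± 0.20, adjusted p = 0.270). A second Pfkp probe for another transcript record differed by -0.70. Pfkm was at 2.68 and 2.91 against 2.38 and 2.13 (-0.55 ± 0.20, adjusted p = 0.392). None of the 3 overlapped between genotypes, and all 3 differed more in row 2 (-1.02, -0.97 and -0.78) than in row 1 (-0.46, -0.45 and -0.31). Pfkp minus Pfkl and Pfkm minus Pfkl on the same array moved by 0.03 and 0.20 and overlapped between genotypes. Without knockout replicate 2 the Pfkl difference was -0.48.

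Aldolase cleaves the product of phosphofructokinase. Aldoc, the brain-type form, was at 3.71 and 5.00 in wild type and 3.32 and 3.31 in the knockout. Wild-type replicate 2 stood well above the other 3 arrays. The difference of -1.04 ± 0.44 (adjusted p = 0.493) was -0.40 without that array and -1.68 without wild-type replicate 1. A second probe gave the same -1.04. Aldoa, the main form, was at 9.95 and 10.03 against 9.98 and 9.72, and its groups overlapped (-0.15, adjusted p = 0.916).

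Triose phosphate isomerase, encoded by Tpi1, was at 8.40 and 8.27 in wild type and 7.89 and 7.69 in the knockout (-0.54 ± 0.18, adjusted p = 0.340). Its other probes differed by -0.43 and -0.40, and the rows by -0.51 and -0.58, so this difference was even across probes and rows. Glucose-6-phosphate isomerase, encoded by Gpi1, differed by -0.26, with knockout arrays at 8.39 and 8.17 below wild-type arrays at 8.55 and 8.53. Pfkfb3 and Pfkfb4 make fructose 2,6-bisphosphate, the activator of phosphofructokinase. They differed by -0.03 (95% interval -0.51 to 0.46) and -0.04 (-0.48 to 0.39), and both overlapped between genotypes. A second, dimmer Pfkfb3 probe, above background on 3 arrays, differed by -0.66, and the mean of all Pfkfb3 probes by -0.34.

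**Figure D3:**
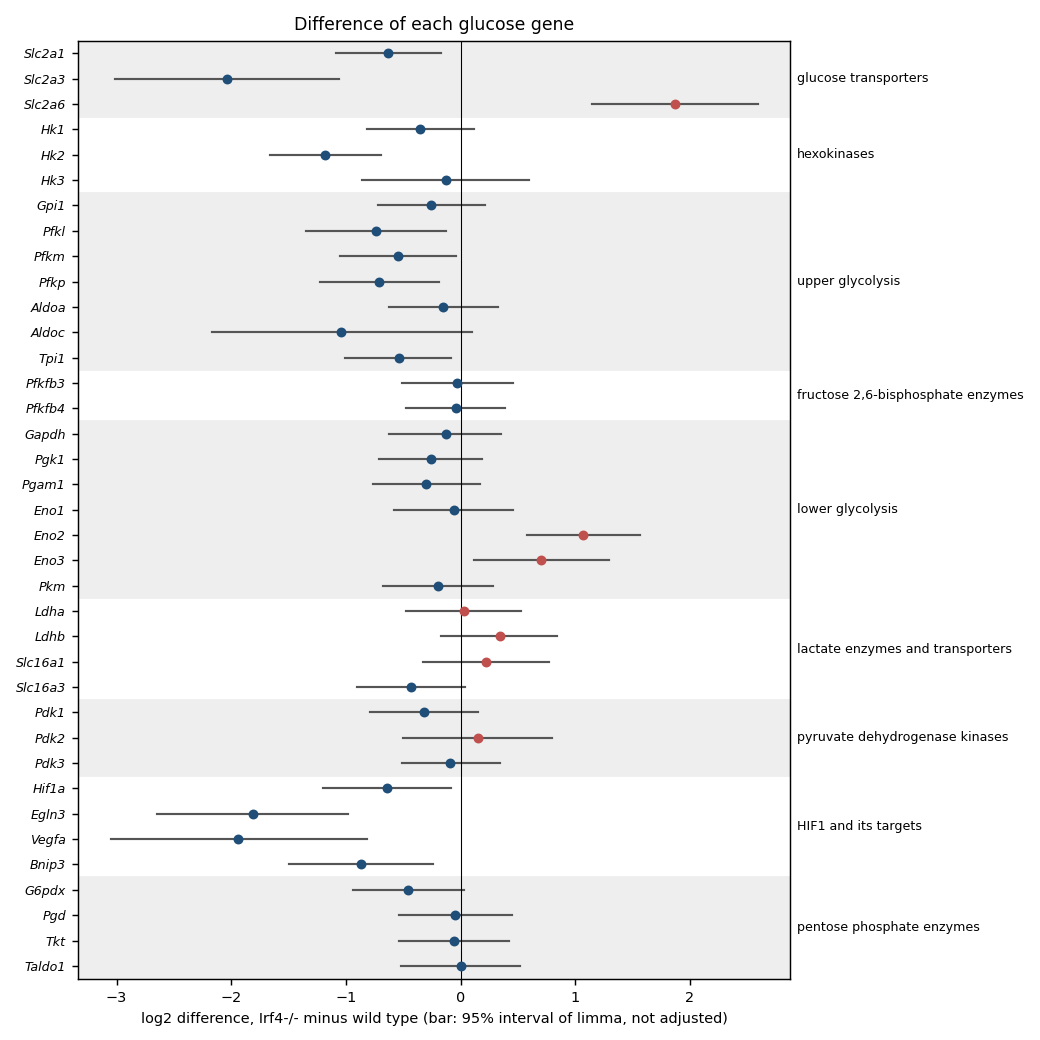
Log2 difference of each of the 37 genes, knockout minus wild type (horizontal axis), with limma's 95% interval before adjustment as a bar; blue points are negative or 0, red points positive, and shaded bands group the genes by role. Intervals of Slc2a3, Hk2, Egln3 and Vegfa lie wholly below 0, as do those of 7 further genes, and those of Slc2a6, Eno2 and Eno3 wholly above, while those of most lower glycolysis and pentose phosphate genes span 0.

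Lower glycolysis, from glyceraldehyde phosphate to pyruvate, yields the ATP. Its main genes differed little. Gapdh was at 10.13 and 10.16 in wild type and 10.15 and 9.86 in the knockout. Its 6 probes differed by between -0.18 and -0.05, the dimmest at levels of 6.34 to 6.63, so bright and dim probes gave alike values. Pgk1 differed by -0.26, Pgam1 by -0.30, Pkm by -0.20 and Eno1 by -0.06 (adjusted p between 0.687 and 0.981). Pgk1, Pgam1 and Pkm were nonetheless lower on both knockout arrays than on both wild-type arrays.

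Enolase makes phosphoenolpyruvate and has forms of most tissues (Eno1), neurons (Eno2) and muscle (Eno3). Eno3 was at 5.87 and 5.55 in wild type and at 6.60 and 6.23 in the knockout (0.70 ± 0.23, adjusted p = 0.327). Both knockout arrays were above both wild-type arrays, by 0.72 and 0.69 in rows 1 and 2. Eno2 was near the limit of background, at -3.93 and -3.75 in wild type and -2.89 and -2.65 in the knockout (1.07 ± 0.19, adjusted p = 0.105). Its difference was 0.29 with normexp background correction. Eno1 was at 8.67 and 8.87 against 8.87 and 8.55, and overlapped. On the same array, Eno3 minus Eno1 moved from -3.06 to -2.29 and Eno2 minus Eno1 from -12.61 to -11.48, so both gaps to Eno1 were narrower in the knockout, without overlap (exact permutation p = 0.333 for both, adjusted p = 0.433).

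Lactate dehydrogenase turns pyruvate into lactate and restores NAD+. Its Ldha subunit, the form of activated T cells, was at 9.81 and 9.65 in wild type and 9.91 and 9.61 in the knockout. The difference was 0.03 (95% interval -0.48 to 0.53), it turned to -0.08 with median scaling and -0.01 with quantile normalization, and a second probe differed by -0.11. The Ldha start shown above holds ACGTG at more places than those of Hk2, Egln3 and Bnip3, and the other Ldha start holds none. Ldhb, whose subunit favours the reverse reaction, was at 3.61 and 3.26 against 3.78 and 3.76 (0.34, adjusted p = 0.670), and its second probe differed by 0.43.

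Lactate leaves the cell through monocarboxylate transporters. Slc16a3 (MCT4), the exporter, was at 7.0 and 7.08 in wild type and at 6.73 and 6.49 in the knockout (-0.43 ± 0.18, adjusted p = 0.497), with no overlap. Slc16a1 (MCT1) was at 3.05 and 2.81 against 3.34 and 2.97 and overlapped (0.22, adjusted p = 0.867).

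Pyruvate dehydrogenase kinases hold pyruvate back from the mitochondria. Pdk1, the HIF1-induced form, was at 4.22 and 4.45 in wild type and 3.98 and 4.05 in the knockout (-0.32, adjusted p = 0.658), and its other probes differed by between -0.32 and 0.00. Pdk3 differed by -0.09 and Pdk2 by 0.15, the latter with -0.24 and 0.54 in rows 1 and 2. Of 11 other tested genes around pyruvate entry (pyruvate carriers, pyruvate carboxylase, and subunits and regulators of pyruvate dehydrogenase), none passed (limma). At an unadjusted p under 0.05, 1 was lower and 2 were higher, against 5.01% and 6.35% of all genes tested. Differences were negative for 5 (53.3% of all genes tested) and positive for 6, and the median was 0.01. A further kinase gene, Pdk4, was above background on both knockout arrays (-2.57 and -3.20) and on neither wild-type array (measured mean -5.56). Its measured difference was 2.68 (limma adjusted p = 0.0868). The gene passed the filter on dim probes only through the knockout, where it was high. As a bound, which was not itself tested, its signal was at least 2.94-fold higher in the knockout. That bound sets the knockout mean against the lowest signal counted as above background, or the probe's own where higher. The phosphatase gene Pdp1, whose product reverses these kinases, differed by 1.18 (adjusted p = 0.114). The carboxylase gene Pcx, at -0.53, and the subunit gene Pdhb, at -0.17, were the most negative.

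Hif1a, Egln3, Vegfa and Bnip3 all had both knockout arrays below both wild-type arrays, as did 21.3% of all genes tested. The median of the 4 differences was -1.34. Hif1a was at 4.95 and 5.38 in wild type and at 4.47 and 4.58 in the knockout (-0.64 ± 0.22, adjusted p = 0.358).

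Egln3, the oxygen-dependent prolyl hydroxylase, was at 2.37 and 3.22 in wild type and 1.09 and 0.87 in the knockout. Its difference of -1.81 ± 0.32 was 3.52-fold (adjusted p = 0.109), with -1.28 in row 1 and -2.35 in row 2. Vegfa, the vessel growth factor gene, was at -0.43 and 0.76 against -1.98 and -1.55. That is -1.94 ± 0.43, or 3.83-fold lower (adjusted p = 0.172), and 2 further Vegfa probes above background on all arrays differed by -2.04 and -1.70. Bnip3, which directs mitochondria to autophagy, was at 5.94 and 6.48 against 5.41 and 5.27 (-0.87 ± 0.24, adjusted p = 0.257).

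In all 4 genes wild-type replicate 2 stood above wild-type replicate 1, by between 0.43 (Hif1a) and 1.19 (Vegfa), while the knockout arrays differed by 0.43 or less. Leaving out wild-type replicate 2 gave differences of -0.42 for Hif1a, -1.39 for Egln3, -1.34 for Vegfa and -0.60 for Bnip3. Leaving out the other wild-type array gave -0.86, -2.24, -2.53 and -1.14.

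HIF targets outside the 37 came from another list which, like the 37, was chosen with earlier results of these data known. Of 15 tested HIF targets 13 had negative differences (53.3% of all genes tested), with a median of -0.59. Both knockout arrays were below both wild-type arrays for 12 of them (21.3% of all genes tested). None passed (limma; 9 at an unadjusted p under 0.05, all lower, against 5.01% of all genes tested). Ndrg1 differed most, at 3.91 and 5.35 in wild type and 2.69 and 2.76 in the knockout (-1.90 ± 0.49, adjusted p = 0.219). Ankrd37 followed, at 3.43 and 4.09 against 2.43 and 2.73 (-1.18 ± 0.28, adjusted p = 0.193). The stress gene Ddit4 and the Myc antagonist gene Mxi1 both differed by -0.93. Plin2, which coats lipid droplets, and Car9, a carbonic anhydrase gene, were the exceptions at 0.56 and 0.31. All 15 were higher on wild-type replicate 2 than on replicate 1, with a median gap of 0.33, whereas 46.2% of all genes tested were. The median difference of the targets was -0.45 when wild-type replicate 2 was left out and -0.71 when replicate 1 was, and by row it was -0.46 and -0.73. What set the wild-type arrays apart on these genes was not tested.

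Of 7 HIF regulators tested, 6 had negative differences (53.3% of all genes tested). For 5 the genotypes did not overlap, with both knockout arrays below (21.3% of all genes tested). Epas1, which encodes the related HIF2-alpha, was at 3.14 and 3.39 in wild type and at 1.62 and 1.21 in the knockout. This was -1.85 ± 0.22 (adjusted p = 0.0543), and it passed with 6 of the 14 other settings tried. Hif3a differed by -1.48 (adjusted p = 0.215), the prolyl hydroxylase gene Egln1 by -0.72 and the ubiquitin ligase gene Vhl by -0.53. The partner gene Arnt (-0.13), Egln2 (-0.04) and Hif1an (0.10) differed least.

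**Figure D4:**
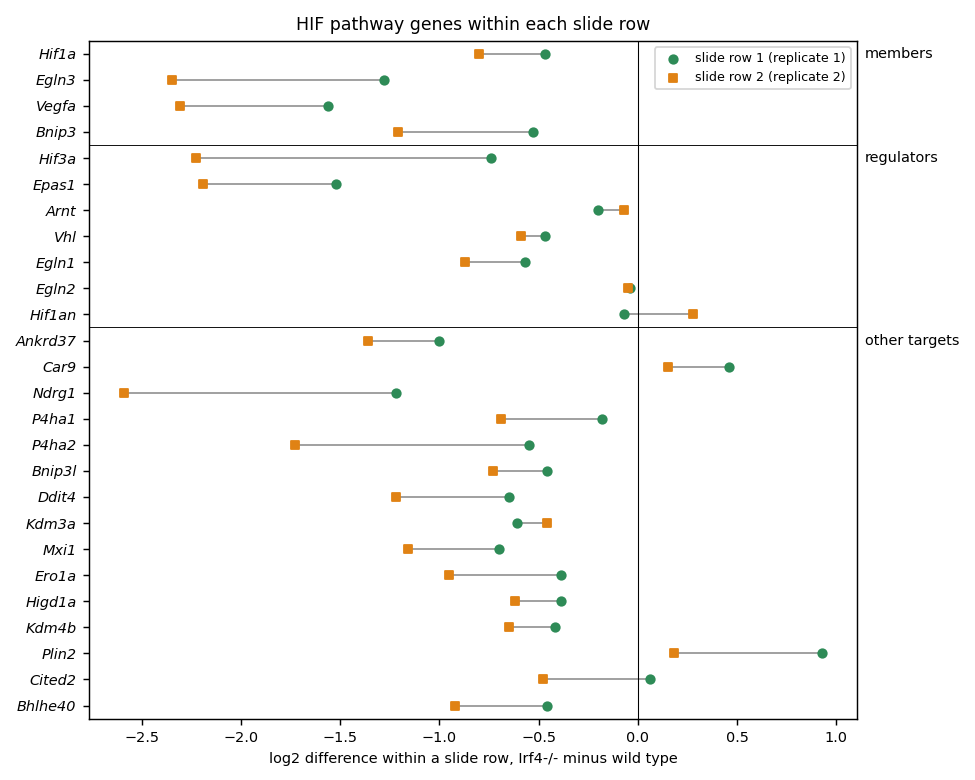
Log2 difference, knockout minus wild type (horizontal axis), of HIF pathway genes within slide row 1 (green circles) and row 2 (orange squares); lines join the same gene, and horizontal rules part the 4 genes of the glucose list from 7 regulators and 15 other targets. Squares lie left of circles for most targets, and Car9 and Plin2 are to the right of 0 in both rows.

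The pentose phosphate pathway draws glucose-6-phosphate off for NADPH and ribose. G6pdx, its entry enzyme on the X chromosome, was at 5.00 and 4.85 in wild type and 4.59 and 4.34 in the knockout (-0.46 ± 0.19, adjusted p = 0.473), with no overlap. Pgd, Tkt and Taldo1 differed by -0.05, -0.06 and 0.00, with 95% intervals of -0.54 to 0.45, -0.54 to 0.42 and -0.52 to 0.52, and all overlapped. Of 7 further genes of this pathway none passed (limma), and 1 was lower at an unadjusted p under 0.05 (5.01% of all genes tested). For 5 the difference was negative (53.3% of all genes tested), and the median was -0.02. H6pd, the enzyme of the endoplasmic reticulum that runs the first steps there, had the largest difference at -0.48 (adjusted p = 0.379). Rpia was at -0.21, and Rpe and Rbks were at 0.26 and 0.25.

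Of 29 other isozymes and side-branch genes on the array 16 were tested and none passed (limma). At an unadjusted p under 0.05, 2 were lower and 2 higher, against 5.01% and 6.35% of all genes tested. Differences were negative for 10 (53.3% of all genes tested) and positive for 6, with a median of -0.15. The lactate dehydrogenase gene Ldhd differed by -0.95 (adjusted p = 0.0990) and was above background on 1 of 2 knockout arrays. The transporter gene Slc2a13 (1.02) and the muscle phosphoglycerate mutase gene Pgam2 (0.83) were highest. Over all 56 tested genes of the lists outside the 37, 39 differences were negative (53.3% of all genes tested), and the median was -0.17.

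Where a gene had several probes, they mostly gave the same direction. The 19 genes with more than 1 probe included Slc2a3, Slc2a6, Pfkp, Aldoc, Tpi1 and Vegfa, for all of which every probe above background on at least 1 array gave the same sign. Probes of opposite sign belonged to Hk3, Ldha, Pfkfb4 and Vegfa. In Pfkfb4 and Vegfa the probe that differed in sign was above background on no array.

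**Figure D5:**
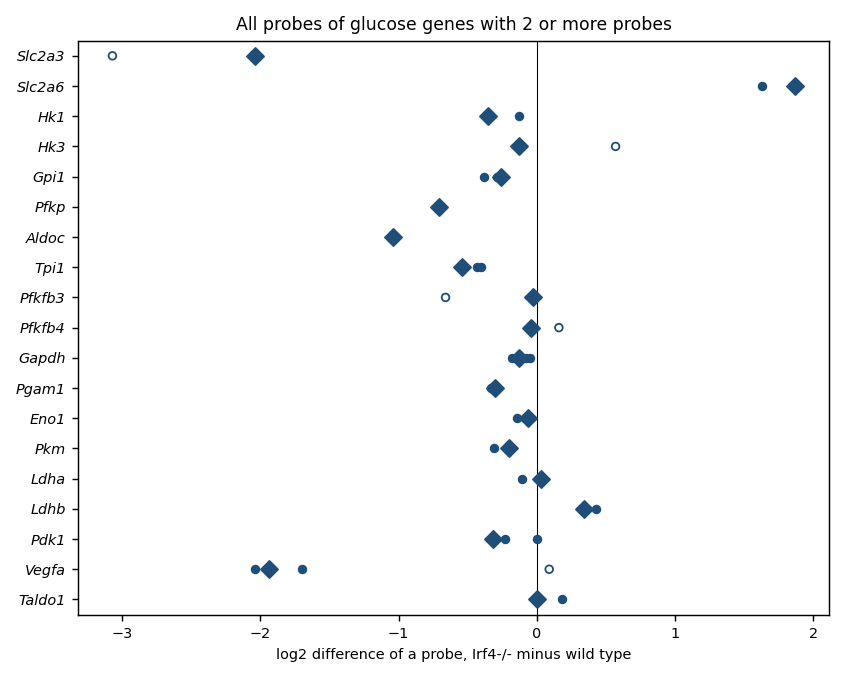
Log2 difference of each probe, knockout minus wild type (horizontal axis), for the 19 glucose genes with 2 or more probes; diamonds are the brightest probe and circles the others, filled where the probe was well above background on all 4 arrays and open otherwise. Slc2a6 lies far right with either probe, the open circle of Slc2a3 has no knockout array above background, and the open circle of Vegfa near 0 is a probe above background on no array.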

How the data were processed

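RNA from 4 samples, 2 per genotype, was measured on 1-colour (Cy3) Agilent mouse arrays of 62976 spots on 1 slide. Per the file headers, the authors extracted spot intensity with Feature Extraction 11.0.1.1 (9.1 in the submitters' processing notes); the deposited processed intensity has background and spatial trend subtracted and is not normalized between arrays. A series table of log2 values, deposited by the authors with scale and centring unstated, matched the scanner values scaled as here and centred per probe, up to a shift of 0.03 or less (column medians -0.16, 0.10, -0.11 and 0.12). It served as an alternative only.

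Control spots and flagged spots were left out and spots of 1 probe averaged, leaving 56605 probes, of which 137 lacked a value on some array. Accessions of 32994 probes matched 22911 symbols in RefSeq (GRCm38.p6). The log2 processed signal minus the 75th percentile of the array's non-control spots was fitted with limma 3.58.1 in R 4.3.3 (lmFit, eBayes; 2 residual and 2.95 prior degrees of freedom), with Benjamini-Hochberg adjustment over 20505 genes or transcripts, and the fit was tested on simulated data. Genes with a difference of at least 0.5 in size and no overlap between genotypes were given array by array, with their relatives; of other lists, the 2 largest differences per direction, except 1 gene that is not reported here. Ddit4, Mxi1, Egln1, Vhl, Arnt and Egln2 were named after their values were seen. The 37 genes and all lists were chosen with earlier results of these data known. Deviations of same-numbered arrays from their group means had r = 0.348 over genes, for numbers that follow accession order and coincide with slide row. Slide column and genotype cannot be told apart. The number of arrays limits the precision.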

Additional observations from a re-analysis of the deposited data

How the results depend on the processing

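Over 14 other settings the median difference of the 37 genes stayed between -0.36 and -0.17, and 25 to 31 differences were negative. The median of the HIF targets stayed between -0.71 and -0.45. All knockout arrays lay below all wild-type arrays for 19 to 24 of the 37 genes in settings with 4 arrays. Without 1 array this held for 22 to 29, where fewer arrays overlap less often. The share over all genes was not computed for these settings. The count of passing genes did not hold. Over all genes it was 151 (101 higher), and it was 1042 with median scaling, 797 with trend and robust moderation, 763 with normexp, 260 with the authors' table, 1 with quantile normalization, and 0 with no filter on dim probes or with the percentile taken over probes above background on all arrays. Leaving out 1 array gave 0 (either wild-type array) to 896 (without knockout replicate 1). A replicate block, the same as a block for slide row, gave 0 (3195 at an unadjusted p under 0.05), and every difference kept its value. Of the 37 genes, 6 passed with median scaling, 9 with normexp, 7 with trend and robust moderation and 0 to 1 without 1 array. Of the genes in other pathway lists, 7, 10 and 10 passed with these 3 settings, 1 with the authors' table, 1 with the stricter filter, and 0 to 1 without 1 array. Among the 37, genes with all knockout arrays above all wild-type arrays numbered 4 to 9 without 1 array, where overlap is likewise less frequent.

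Signs turned for 10 of the 37 genes, all with differences of 0.15 or less in size, of which Taldo1, at 0.00, ranged from -0.14 to 0.14 (0.18 with its second probe). With the mean of all probes Hk3 was 0.22, Pfkfb4 0.06 and Ldha -0.04. With the second probe Hk3 was 0.57, Pfkfb4 0.16 and Ldha -0.11. Ldha was also -0.08 with median scaling and -0.01 with quantile normalization. Without 1 array Hk3 spanned -0.48 to 0.22, Pfkfb3 -0.17 to 0.11, Pfkfb4 -0.10 to 0.01, Gapdh -0.28 to 0.01, Eno1 -0.22 to 0.10, Ldha -0.12 to 0.17, Pdk2 -0.13 to 0.44, Pgd -0.19 to 0.10 and Tkt -0.17 to 0.05. Median scaling moved the median of all genes to -0.13 and no filter moved it to 0.12. The planned normexp on the mean signal was not run, since these files hold the median signal, which was used instead and chosen after seeing the data. Other causes of these changes were not tested.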
